A study of Mus musculus with 36 samples.

Results

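In cultured mouse cortical neurons, 564 peaks of the assay for transposase-accessible chromatin (ATAC-seq) were less accessible after 1 h of brain-derived neurotrophic factor (BDNF) while staying near the controls after 1 h of potassium chloride (KCl). They were taken from 40,667 peaks with a mean of at least 20 reads over the 18 ATAC libraries, out of 58,177 peaks in all. For each peak the reads of a library were scaled by that library's total in peaks, as counts per M reads (CPM, where M stands for mega), and the log2 ratio of the mean CPM of a group to the mean CPM of the 6 control libraries was taken after adding 0.5 to both. The median over the 40,667 peaks was then subtracted, and this centred log2 ratio is called relative accessibility below. A peak was taken when its relative accessibility was -0.8 or lower at BDNF 1 h and between -0.4 and 0.8 at KCl 1 h. Without the condition on KCl there were 791 peaks, of which 219 were also at or below -0.4 at KCl 1 h and 8 were at or above 0.8. By the same limits in the other direction 2501 peaks were higher after BDNF. Because the values at 1 h chose the peaks, they are given as a description without a test.

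BDNF is a growth factor that binds the receptor tyrosine kinase TrkB on neurons and acts largely through the MAPK pathway, while KCl depolarises the membrane and lets calcium enter. Both switch on early transcription factors of the FOS, JUN and EGR families, and the accessibility of regulatory DNA changes within hours. An ATAC-seq peak marks DNA free enough of nucleosomes for a transposase to cut, so that a lower read count at a peak means less cut DNA there.

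Cortical neurons from embryonic day 15 CD-1 mice were kept in culture for 7 days and then silenced for 2 h with 100 µM AP-5, an NMDA receptor blocker, and 1 µM tetrodotoxin, a sodium channel blocker. BDNF at 10 ng/ml or KCl at 55 mM followed for 1, 6 or 10 h, and the controls stayed in the blockers for the same times. Each of the 9 groups had 2 ATAC-seq and 2 RNA-seq libraries, so that there were 6 controls per assay. The cells came from pooled embryos, and the deposited table gives ATAC columns no replicate number, so the letters A and B used here only tell the columns of a group apart and p-values measure the spread between such libraries.

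Reads in peaks ranged from 1.24 to 6.24 M per ATAC library with a median of 3.55 M, the shallowest being KCl 6 h B. Reads in genes ranged from 8.51 to 36.7 M per RNA library. No columns held identical values, and replicate columns differed by 2.04 to 2.58 times the sampling variance in ATAC and by 2.33 to 36.4 times in RNA. In RNA, the summed value of 4 pan-neuronal markers was 39918 to 44306 in the controls, 38703 to 43588 with BDNF and 34133 to 43211 with KCl. The other cell types were present at lower sums. In the controls these were 10033 to 12928 for 6 astrocyte markers, 5689 to 6163 for 5 oligodendrocyte-lineage markers and 101 to 156 for 5 microglial markers. The astrocyte sum was 9761 to 12551 with BDNF and 7736 to 13958 with KCl. At BDNF 6 h 4 of the 5 astrocyte markers tested were called lower by limma, among them Aqp4 (-0.85) and Gfap (-0.74), and at BDNF 10 h 2 were. At KCl 6 and 10 h all 5 were (Aqp4 -1.17 and Gfap -1.22 at 6 h). At 1 h of either stimulus 0 were lower and 1, Aldoc, was higher. The oligodendrocyte-lineage sum was 5230 to 6500 with BDNF and 4191 to 7192 with KCl. The sum of 8 interneuron markers was higher with both stimuli, at 13139 to 16040 in the controls against 17593 to 18847 with BDNF and 17313 to 22425 with KCl. Gad1, Gad2, Slc32a1, Sst and Npy were the 5 called higher at each time of BDNF, while Dlx1, Dlx2 and Lhx6 were not called there (-0.11 to 0.13), and with KCl Dlx1 (-0.43 at 6 h, -0.27 at 10 h) and Lhx6 (-0.44 and -0.39) were called lower. The part of these markers in the results below was not tested. In such bulk cultures fewer cells of a type and less accessible DNA per cell cannot be told apart.

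The central 200 bases of 8 members are printed here because the results below turn on them. They are from the plus strand of GRCm38, the assembly also called mm10, read 5′ to 3′. Capitals mark copies, on either strand, of the searched letters TTGGCA (the short site of nuclear factor I, NFI), CAGATG (an E-box of neuronal bHLH factors such as NEUROD), TAATTA (homeobox factors), TGANTCA (AP-1, the FOS and JUN site) and GGGCGGGG (KLF and SP factors). The first 4 windows are those of the members with the lowest relative accessibility at BDNF 1 h.
chr10:6298833-6299032: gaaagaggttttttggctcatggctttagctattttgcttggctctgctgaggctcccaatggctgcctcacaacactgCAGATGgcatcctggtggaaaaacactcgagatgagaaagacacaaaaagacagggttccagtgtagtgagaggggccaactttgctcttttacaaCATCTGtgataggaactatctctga
chr3:27543178-27543377: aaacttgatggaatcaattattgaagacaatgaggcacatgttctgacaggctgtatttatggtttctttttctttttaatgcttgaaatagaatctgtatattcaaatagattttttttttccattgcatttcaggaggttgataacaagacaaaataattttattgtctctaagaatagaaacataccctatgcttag
chr1:103498787-103498986: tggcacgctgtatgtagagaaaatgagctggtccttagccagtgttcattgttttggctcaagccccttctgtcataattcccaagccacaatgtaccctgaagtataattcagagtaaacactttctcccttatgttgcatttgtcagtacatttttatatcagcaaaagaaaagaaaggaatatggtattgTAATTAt
chr1:69329455-69329654: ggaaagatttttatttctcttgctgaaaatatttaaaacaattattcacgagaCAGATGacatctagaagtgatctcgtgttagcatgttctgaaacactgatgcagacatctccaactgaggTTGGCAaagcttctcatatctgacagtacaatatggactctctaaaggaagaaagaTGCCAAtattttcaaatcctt

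The next 2 windows belong to the members in an intron of Cpa6 and at the start of the noncoding gene Gm37709, 2 of the 5 that were lower with BDNF than with KCl at both 6 and 10 h.
chr1:10510468-10510667: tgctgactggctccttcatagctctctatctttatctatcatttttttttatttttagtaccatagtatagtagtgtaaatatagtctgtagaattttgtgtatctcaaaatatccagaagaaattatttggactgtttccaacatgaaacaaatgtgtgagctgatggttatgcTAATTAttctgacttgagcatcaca
chr16:79651415-79651614: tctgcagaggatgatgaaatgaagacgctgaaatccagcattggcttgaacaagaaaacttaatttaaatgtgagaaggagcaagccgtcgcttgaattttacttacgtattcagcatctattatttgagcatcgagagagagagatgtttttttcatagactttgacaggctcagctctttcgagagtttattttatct

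The last 2 windows belong to members paired with genes whose RNA is described in most detail. The first lies 39.96 kb from a start of Runx1t1 and holds 1 of the few matches to TGANTCA. N stands for any base there, and the match reads TGAATCA. The second covers the promoter of Sh2d3c and holds a KLF and SP match.
chr4:13703373-13703572: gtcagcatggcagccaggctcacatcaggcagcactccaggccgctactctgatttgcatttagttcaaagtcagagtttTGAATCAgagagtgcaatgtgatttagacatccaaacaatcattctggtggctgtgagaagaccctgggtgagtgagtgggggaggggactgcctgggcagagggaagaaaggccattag
chr2:32741353-32741552: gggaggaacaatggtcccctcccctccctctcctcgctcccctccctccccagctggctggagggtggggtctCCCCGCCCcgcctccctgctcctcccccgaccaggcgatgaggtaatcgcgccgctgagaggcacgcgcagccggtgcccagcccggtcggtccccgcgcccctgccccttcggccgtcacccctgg

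At BDNF 1 h, the median relative accessibility of the members was -0.95 and the lowest was -2.002. There were 211 members under -1 and 14 under -1.5, while 353 lay between -1 and the threshold of -0.8. Taken alone, the BDNF 1 h libraries had medians of -1.06 (A) and -0.93 (B), against -0.08 to 0.12 in the 6 control libraries. Both BDNF 1 h libraries lay below all 6 controls at 431 members (76.4%), against 9.58% of the kept peaks, a count that the rule itself favours. Most members were weak peaks. The median member had 34 reads in both BDNF 1 h libraries together and 173 in the 6 controls, which gives its relative accessibility a counting error of 0.27 (range 0.13 to 0.47) on the log2 scale. This error covers sampling of reads alone, and replicate ATAC columns differed by 2.04 to 2.58 times the sampling variance. The members thinned out as peaks grew stronger, with 231, 185, 115, 33 and 0 of them in 5 successive classes of equally many kept peaks by mean count. The SD of relative accessibility at BDNF 1 h over all kept peaks fell too, at 0.82, 0.73, 0.62, 0.44 and 0.21 in these classes. A fixed threshold thus takes more weak peaks, whatever their nature.

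The threshold fell within a dense range of values. The members just inside it were chr6:59351309-59351670 and chr7:115310488-115310726 and the peaks just outside it were chr4:24213558-24214008 and chr1:176946430-176947168, all at -0.80. With a single BDNF 1 h library in place of both, the rule took 1420 peaks (library A) or 985 peaks (library B), of which 431 and 372 were members. With only the 2 controls of 1 h it took 680 peaks, 358 of them members. With the other scaling used for the tests it took 645, 536 of them members.

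The lowest member, chr10:6298783-6299082, lies between genes 377 kb from the nearest coding start, that of Rgs17. It had 2.09 and 0.407 CPM at BDNF 1 h, against 5.32 to 7.79 CPM in the controls (median 7.43) and 6.08 and 5.77 CPM at KCl 1 h. The second lowest, chr3:27543040-27543515, is in an intron of Fndc3b and had 1.05 and 1.22 CPM at BDNF 1 h, against 3.65 to 8.83 CPM in the controls (median 5.69) and 8.37 and 6.89 CPM at KCl 1 h. In both, the BDNF 1 h libraries lay below every control and both KCl 1 h libraries lay within the range of the controls.

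The third lowest, chr1:103498702-103499070, lies 1270 kb from the coding start of the cadherin gene Cdh20 and had 1.57 and 1.63 CPM at BDNF 1 h, against 5.41 to 10.0 CPM in the controls (median 7.37). The fourth lowest, chr1:69329337-69329771, lies 221 kb from the start of Erbb4, a neuregulin receptor of interneurons, and had 2.62 and 2.44 CPM at BDNF 1 h, against 5.43 to 14.6 CPM in the controls (median 11.0). The remaining 2 of the 6 lowest were chr4:19905805-19906093 in an intron of Atp6v0d2, a subunit of the vacuolar proton pump, with 1.05 and 2.44 CPM against 5.30 to 8.61 CPM, and chr10:51631825-51632169 at the promoter of Gprc6a, with 2.62 and 0.407 CPM against 4.52 to 9.61 CPM. None of these 6 members overlapped the controls at BDNF 1 h, and their levels rested on 2 to 12 reads per BDNF 1 h library.

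**Figure D1:**
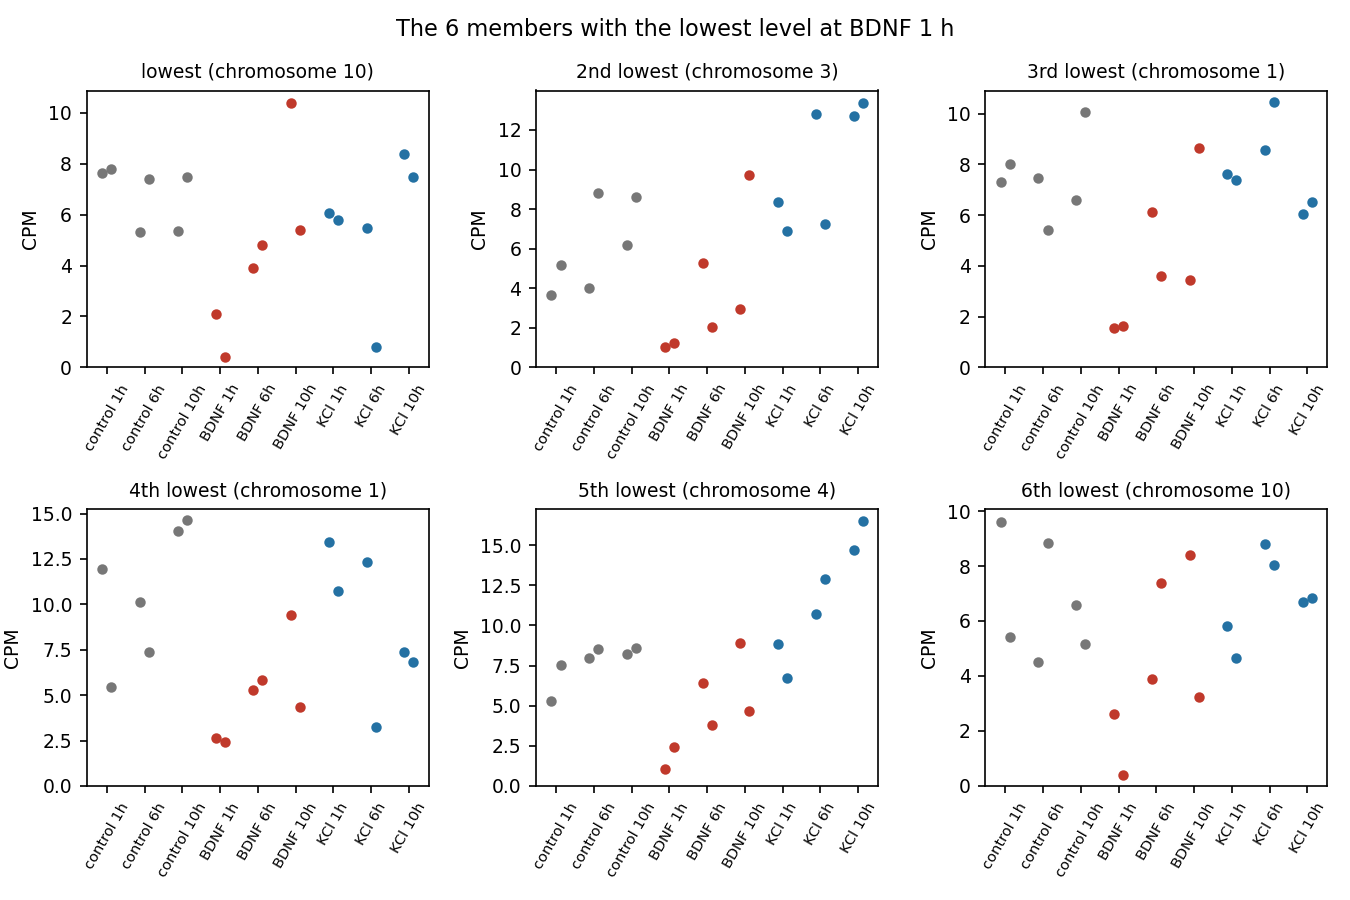
CPM of the 6 members with the lowest relative accessibility at BDNF 1 h in each of the 18 ATAC libraries, grouped by treatment and time; each point is 1 library and each vertical axis starts at 0. The BDNF 1 h points lie below every control point in all 6 panels, while at BDNF 10 h at least 1 library lies above the lowest control in all 6.

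At 6 and 10 h of BDNF the members lay closer to the controls, but most of them stayed on the lower side. The comparison shares the 6 control libraries with the rule, so its values are a description. The median relative accessibility was -0.34 at 6 h and -0.20 at 10 h, with 85.6% and 69.3% of the members below 0. At 6 h 55 members (9.75%) were at or below -0.8, against 1.00% of the kept peaks, and at 10 h 45 members (7.98%) were, against 1.92%. At both later times 10 members were at or below -0.8. There were 352 members below 0 at both 6 and 10 h and 42 above 0 at both. The same counts were not made over the kept peaks, so no background stands beside them. Both BDNF 6 h libraries lay below all controls at 120 members (21.3%), against 6.45% of the kept peaks, and both BDNF 10 h libraries did so at 77 members (13.7%), against 7.39%. With KCl the medians were -0.01, 0.01 and 0.03 at 1, 6 and 10 h, and both libraries lay below all controls at 2 members at 1 h (kept peaks 8.71%), 23 at 6 h (8.39%) and 26 at 10 h (7.95%).

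**Figure D2:**
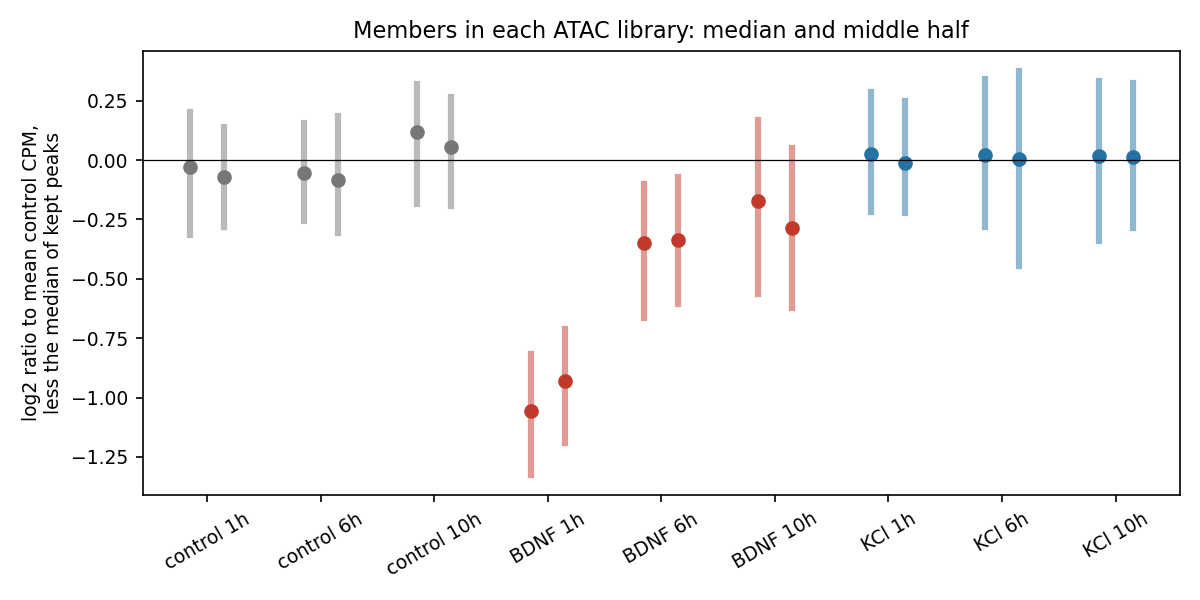
Relative accessibility of the 564 members (log2 ratio to the mean control CPM, less the median of the kept peaks) in each ATAC library; points are medians over members and bars span the lower to the upper quartile. The BDNF libraries lie at -1.06 and -0.93 (1 h), -0.35 and -0.34 (6 h) and -0.17 and -0.28 (10 h), while the KCl libraries lie between -0.01 and 0.03.

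In the fit over all peaks with pooled controls (edgeR's quasi-likelihood test, Benjamini-Hochberg adjusted p below 0.1), 46 members were called lower than the controls at BDNF 6 h, against a background of 2.07% of the 56,383 peaks tested, and 31 at BDNF 10 h, against 2.04%. None was called higher at either time, where the backgrounds were 7.33% and 6.23%. At an unadjusted p below 0.05 there were 125 lower and 2 higher at 6 h (backgrounds 6.49% and 10.5%) and 92 lower and 2 higher at 10 h (7.12% and 10.1%), and DESeq2's test also called 0 higher at both times. KCl gave 8 members lower and 5 higher at 6 h (backgrounds 2.09% and 4.65%) and 13 lower and 6 higher at 10 h (2.09% and 4.98%). At an unadjusted p below 0.05 KCl gave 33 lower and 18 higher at 6 h (7.21% and 9.72%) and 51 lower and 23 higher at 10 h (7.33% and 9.85%). This split for KCl turned with the scaling, to 7 lower and 16 higher at 6 h (backgrounds 3.95% and 7.62%) and 9 lower and 20 higher at 10 h (5.22% and 8.96%) under TMM, all of them shares of the members below the background. The peaks tested needed a mean count of only 10, against 20 for members. The backgrounds of such calls, here and below, thus include peaks too weak to be members. Shares called over the kept peaks alone were not counted.

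To keep the controls of the rule apart from those of the comparison, the 680 peaks chosen with the 1 h controls alone were set against the controls of their own time. Their median log2 difference was -0.30 at BDNF 6 h, with 76.9% negative against 52.4% of all peaks tested, and -0.20 at BDNF 10 h, with 64.4% negative against 52.0%. At 6 h 20 of them were called lower (2.94%; background 1.03%) and 0 higher (background 5.11%), and at 10 h 14 were called lower (2.06%; background 0.933%) and 1 higher (background 3.20%), by edgeR. At an unadjusted p below 0.05 there were 74 lower and 1 higher at 6 h (backgrounds 5.14% and 9.20%) and 85 lower and 13 higher at 10 h (5.60% and 7.97%). The medians for KCl were 0.04 at 6 h and -0.01 at 10 h, with 4 called lower at each time (backgrounds 1.06% and 1.08%).

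BDNF against KCl at 6 h and at 10 h used none of the libraries whose relative accessibility chose the members. All 18 ATAC libraries had, however, entered the filter on the mean count. Here too the members lay lower with BDNF. At 6 h 18 members were called lower with BDNF than with KCl (3.19%; background 1.36%) and 1 was called higher (background 2.02%), by edgeR at an adjusted p below 0.1. The median log2 difference was -0.33, against 0.01 over all peaks, and 405 members (71.8%) were negative, against 49.3% of all peaks. At an unadjusted p below 0.05 there were 102 members lower and 7 higher, with backgrounds of 6.55% and 7.91%. Both BDNF 6 h libraries lay below both KCl 6 h libraries at 278 members (49.3%), against 25.1% of the kept peaks, and above them at 26, against 21.2%. The calls rested on every library: fewer members were called when any 1 library of 6 h was left out. Without BDNF 6 h A the share of members called lower was below that of all peaks. The median log2 difference was -0.33 without BDNF 6 h A and -0.33 without BDNF 6 h B. Without KCl 6 h A it was -0.24, and without KCl 6 h B -0.32.

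At 10 h the difference was smaller and in the same direction. There were 14 members called lower with BDNF than with KCl (2.48%; background 0.811%) and 1 called higher (background 1.07%). The median log2 difference was -0.22 and 372 members (65.96%) were negative, against 50.8% of all peaks. At an unadjusted p below 0.05 there were 66 members lower and 11 higher, with backgrounds of 6.30% and 6.69%. The BDNF libraries lay below the KCl libraries without overlap at 221 members (39.2%), against 23.8% of the kept peaks. Fewer were called here too when any 1 library of 10 h was left out. Without BDNF 10 h A or B the share of members called lower was near that of all peaks. The median log2 difference was -0.26 without BDNF 10 h A and -0.19 without B, and -0.23 without KCl 10 h A or B. With all libraries, 27 members were called lower at 6 or 10 h, 5 of them at both. That is 27.8% of the 6 h calls and 35.7% of the 10 h calls. The overlap of such calls over all peaks was not counted, so this overlap is not shown to be particular to the members. At 287 members (50.9%) the difference was negative at both times, against 30.7% of the kept peaks.

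**Figure D3:**
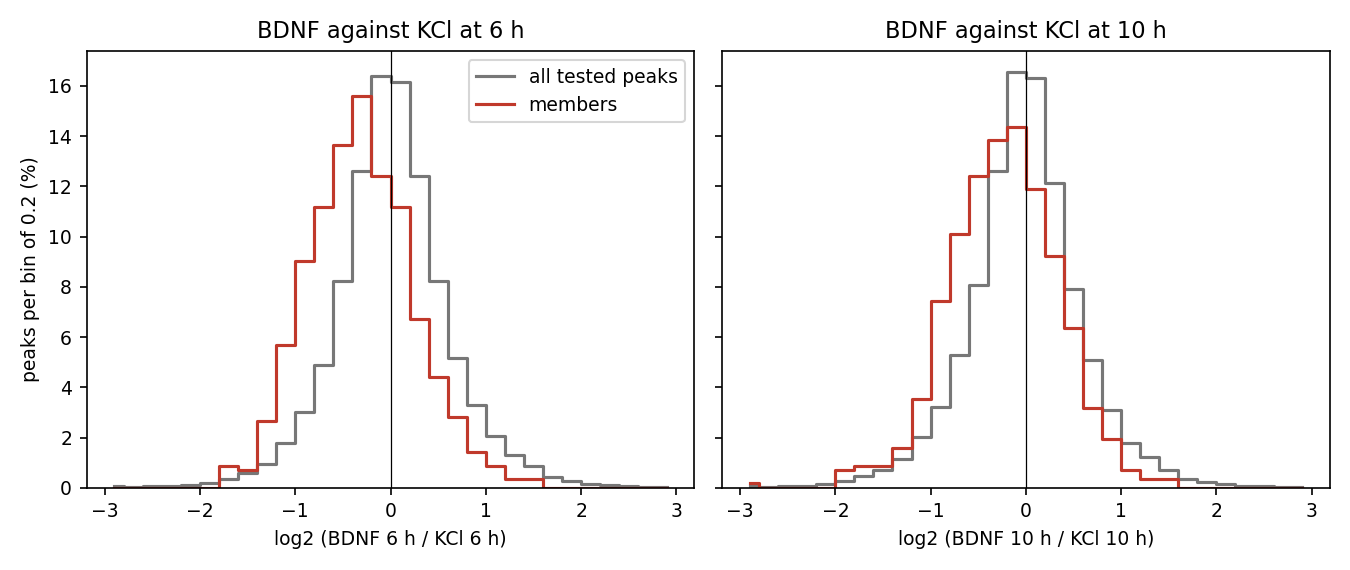
Distribution of the log2 difference between BDNF and KCl (edgeR, LOESS scaling) at 6 h and at 10 h for the 564 members and for the 56,383 peaks tested, in percent of each set per bin of 0.2. The curve of the members is shifted to the left of that of all peaks, with medians of -0.33 at 6 h and -0.22 at 10 h.

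The 6 members with the smallest adjusted p were in introns of Iqgap2, Lmntd1, Cpa6 and Slc22a22, at the start of Gm37709 and 58.8 kb from Glce. The member in Iqgap2, a scaffold protein of the cytoskeleton, was chr13:95871975-95872329. It had 0.989 and 1.80 CPM at BDNF 10 h, against 13.1 and 10.6 CPM at KCl 10 h, a log2 difference of -2.88 ± 0.62 (SE; edgeR adjusted p = 0.00518) that rested on 2 and 5 reads in the BDNF libraries. At 6 h its libraries lay nearer each other, at 4.45 and 3.60 CPM with BDNF against 8.32 and 8.05 CPM with KCl (adjusted p = 0.435).

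The member in Lmntd1, chr6:145585265-145585856, had 5.84 and 7.21 CPM at BDNF 6 h, against 23.3 and 11.3 CPM at KCl 6 h (log2 difference -1.40 ± 0.34, edgeR adjusted p = 0.0122). The member in Slc22a22, chr15:57302592-57303093, had 2.23 and 3.26 CPM against 12.4 and 8.05 CPM at 6 h (-1.76 ± 0.47, adjusted p = 0.0277). The intergenic member near Glce, an enzyme of heparan sulfate synthesis, was chr9:62181187-62181707, with 4.45 and 5.15 CPM against 13.8 and 19.3 CPM at 6 h (-1.56 ± 0.42, adjusted p = 0.0278). In these 3 the groups did not overlap at 6 h, and none was called at 10 h.

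Windows of 2 of the 5 members called at both times are printed above as the second set. In Cpa6, which encodes a carboxypeptidase, chr1:10510336-10510799 had 7.79 and 4.46 CPM at BDNF 6 h against 18.3 and 11.3 CPM at KCl 6 h, and 6.92 and 2.88 CPM at BDNF 10 h against 18.1 and 19.6 CPM at KCl 10 h. Its log2 differences were -1.25 ± 0.41 (edgeR adjusted p = 0.0897) and -1.90 ± 0.45 (adjusted p = 0.014). Its controls ranged widely, from 3.99 to 16.9 CPM, and held 3 of the 4 BDNF values and 1 of the 4 KCl values within that range. At the start of Gm37709, chr16:79651194-79651835 had 5.29 and 5.66 CPM at BDNF 6 h against 18.8 and 8.86 CPM, and 6.43 and 7.20 CPM at BDNF 10 h against 26.1 and 18.05 CPM (-1.33 ± 0.38, adjusted p = 0.0418, and -1.58 ± 0.39, adjusted p = 0.0175).

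The 2 members called higher with BDNF than with KCl had come back from low levels at 1 h. The intergenic chr15:5740623-5741091 had 8.11 and 8.75 CPM at BDNF 1 h, 33.1 and 18.7 CPM at BDNF 10 h and 11.4 and 7.47 CPM at KCl 10 h (log2 difference 1.53 ± 0.34, edgeR adjusted p = 0.00653). Its controls lay at 13.5 to 19.6 CPM, above both KCl libraries. The member chr13:83016477-83016990, 487 kb from the start of Mef2c, had 6.54 and 2.24 CPM at BDNF 1 h, 14.5 and 12.7 CPM at BDNF 6 h and 5.47 and 6.44 CPM at KCl 6 h (1.37 ± 0.43, adjusted p = 0.0734).

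Between 6 and 10 h of the same stimulus no member was called by edgeR in any of the fits run, or by DESeq2. No other peak was called with pooled controls and all libraries either, but with 9 levels 2 peaks were lower and 2 higher for KCl, without KCl 6 h A 13 and 17, without KCl 10 h B 3 and 1, and without BDNF 10 h B 1 was lower for BDNF. For BDNF the median log2 difference of the members was 0.08 from 6 to 10 h, with 12 lower and 28 higher at an unadjusted p below 0.05 (backgrounds 3.05% and 2.50%), and for KCl it was -0.02, with 16 lower and 16 higher (2.90% and 3.02%). The difference between BDNF and KCl at 6 h varied with base composition. Its median was -0.39 at members of at most 40% G and C, -0.37 over 40 to 45%, -0.25 over 45 to 50% and -0.08 over 50%, while the kept peaks of the same classes had -0.05, -0.01, 0.02 and 0.02. At 10 h the medians of the members in these classes were -0.20, -0.19, -0.34 and -0.25, and those of the kept peaks were 0.03, 0.00, -0.01 and -0.00.

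The members lay farther from gene starts than the kept peaks did, and few covered a promoter. Only 31 of them (5.50%; exact 95% interval 3.76 to 7.71%) covered a promoter, from 1000 bases before to 100 after a transcription start, against 34.9% of the kept peaks. Another 38 (6.74%) were exonic, 197 (34.9%) intronic and 298 (52.8%; 48.6 to 57.0%) intergenic, against 29.3% intronic and 31.2% intergenic in the kept peaks. Other peaks that changed at BDNF 1 h had similar places: a promoter was covered by 5.02% of the 219 peaks lower with both stimuli (2.53 to 8.81%) and by 7.52% of the 2501 peaks higher with BDNF (6.51 to 8.62%), and 55.7% and 44.4% of them were intergenic. Outside promoters the gap was smaller: intergenic peaks made up 55.9% of the members outside promoters and 47.9% of the kept peaks outside promoters. The median distance to the nearest coding start was 83.6 kb for members, 13.3 kb for kept peaks and 41.4 kb for kept peaks outside promoters, and 45.7% of the members lay beyond 100 kb, against 20.5% of the kept peaks. They were spread over the genome: 24 had another member within 50 kb, and the median distance to the next member was 1088 kb.

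Their DNA was poor in G and C. The median GC content was 41.3%, against 50.9% in the kept peaks and 46.7% in kept peaks outside promoters. Other peaks that changed at BDNF 1 h lay between, at 44.1% for those lower with both stimuli and 45.2% for those higher with BDNF. The members made up 5.32% of the kept peaks of at most 40% GC, 2.29% of those over 40 to 45%, 1.36% of those over 45 to 50% and 0.321% of those over 50%. When relative accessibility was centred within deciles of GC content, the rule took 479 peaks, 456 of them members. The median number of CpG dinucleotides per 100 bases was 0.781, against 1.88 in the kept peaks and 1.21 in those outside promoters. It was 0.862 in the peaks lower with both stimuli and 1.14 in those higher with BDNF. The members were also narrower, with a median width of 391.5 bases (167 to 1053) against 476 bases, but outside promoters the medians were 393 and 398 bases.

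Of classes of neuronal genes, cadherins and protocadherins, which join cells at contacts, were the nearest coding gene of 16 members (2.84%; 1.63 to 4.57%), against 1.01% of the kept peaks. These genes were Cdh2, Cdh12, Cdh18, Cdh20, Pcdh7, Pcdh9, Pcdh18 and Pcdh20. Axon guidance genes were nearest to 12 members (2.13%; 1.10 to 3.69%), against 1.15%, among them Robo1, Slit2, Epha6, Efna5 and the netrin receptors Unc5c and Unc5d. Potassium channels were nearest to 9 members (1.60%; 0.732 to 3.008%), against 0.878%, and solute carriers to 13 (interval 1.23 to 3.91%), against 1.93%. For these 3 classes the share of the kept peaks lies within the interval of the members. Class shares were not counted for kept peaks outside promoters or of low GC content. Whether the higher share of cadherins and protocadherins goes beyond the place and base composition of the members was not tested. Naaladl2 was the single gene nearest to as many as 4 members.

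Of the motifs searched, AP-1 differed most between members and kept peaks outside promoters. It is the site of FOS and JUN dimers. The letters TGANTCA were found in the central 200 bases of 6 members (1.06%; exact interval 0.391 to 2.301%), against 9.93% of the kept peaks and 13.7% of those outside promoters. Peaks that gained accessibility with BDNF held it in 53.3%, so part of the kept peaks with AP-1 are those. Among kept peaks outside promoters whose relative accessibility stayed within 0.4 of 0 at BDNF 1 h, 5.68% held it, and among the 219 peaks lower with both stimuli 2.74% did (1.01 to 5.87%). Among peaks outside promoters with at most 45% GC, 3 of 376 members held it (0.798%; 0.165 to 2.31%), against 18.3% of kept peaks. The 6 members with TGANTCA had Lin7a, Arhgap5, Ube2e2, Odf2l, Runx1t1 and Fto as nearest coding genes. The cyclic AMP response element TGACGTCA and the EGR site GCGTGGGCG were found in 0 of 564 members, which allows a share of up to 0.652%, and in 0.299% and 0.144% of kept peaks outside promoters.

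The NFI short site TTGGCA was the most frequent motif searched, at 168 members (29.8%; 26.0 to 33.7%), against 18.9% of the kept peaks, 25.1% of those outside promoters and 21.0% of the peaks higher with BDNF. NFI factors act in neuronal and glial differentiation. Among peaks outside promoters of at most 45% GC the shares were 33.0% of members (28.2 to 38.0%) and 25.1% of kept peaks. The E-box CAGATG was in 23.9% of the members (20.5 to 27.7%) and the homeobox letters TAATTA in 14.5% (11.7 to 17.7%), against 22.1% and 12.2% of the kept peaks outside promoters, which both lie within these intervals. There were 259 members (45.9%) with none of these 3 motifs and 6 with all 3, and 22 members held 2 or more copies of the NFI short site.

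For several other factors known to act at neuronal enhancers, the share in the central 200 bases of members was near that of the kept peaks outside promoters. The RFX letters GTTNCCATG were in 4.79% of the members (3.18 to 6.89%) against 3.75%, the shorter RFX site GTTGCCA in 7.27% (5.27 to 9.73%) against 6.19%, the POU site ATGCAAAT in 4.79% against 3.94% and the SOX letters ACAATG in 15.4% against 13.9%. Over the whole peak, up to 500 bases, outside promoters and at most 45% GC, GTTNCCATG was in 9.04% of the members (6.34 to 12.4%) against 5.48% of the kept peaks, while in the central 200 bases of the same peaks it was in 5.05% (3.07 to 7.78%) against 3.65%. A further 3 motifs were less frequent in members: the CTCF core, which marks insulators, in 3.55% (2.18 to 5.42%) against 9.55%, the nuclear receptor site AGGTCA in 2.48% (1.36 to 4.13%) against 4.93%, and the HIC1 letters TGCCCNCC, the site of a repressor, in 1.60% (0.732 to 3.008%) against 3.27%. Outside promoters at most 45% GC, HIC1 was in 0.266% of the members (0.00673 to 1.47%) against 1.26%, which lies within the interval, AGGTCA in 1.60% (0.588 to 3.44%) against 3.79% and CTCF in 2.93% (1.47 to 5.17%) against 6.04%. The low CTCF share was also found in the peaks higher with BDNF, at 3.52%. All these are matches of letters on both strands, and GTTGCCA and TTGGCA can overlap by their shared bases; a match is not a bound site.

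**Figure D4:**
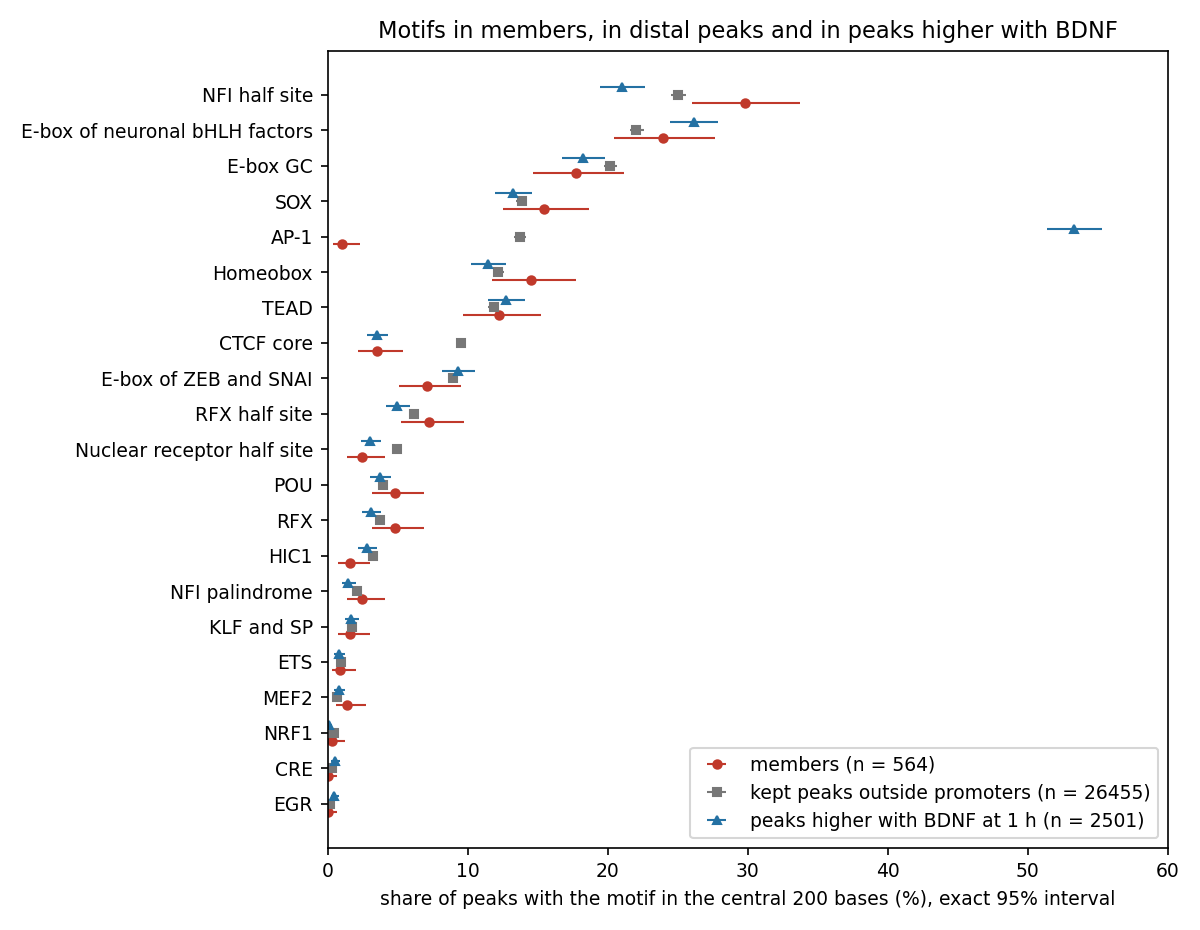
Share of peaks that hold each searched motif in their central 200 bases, in percent, for the 564 members, the 26,455 kept peaks outside promoters and the 2501 peaks higher with BDNF at 1 h; bars are exact 95% binomial intervals. AP-1 separates the sets most, with 1.06% of members, 13.7% of kept peaks outside promoters and 53.3% of peaks higher with BDNF.

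For the RNA, a member was paired with the tested gene whose start was nearest to its centre, within 50 kb. There were 187 such members (33.2%, against 66.2% of the kept peaks), paired with 182 genes. At BDNF 1 h 40 of these genes had fallen (21.98%; background 19.0%) and 32 had risen (17.6%; background 21.3%), by limma at an adjusted p below 0.1. At 6 h 50 had fallen (27.5%; background 21.1%) and 42 risen (23.1%; 22.1%), and at 10 h 60 had fallen (33.0%; 19.5%) and 34 risen (18.7%; 21.1%). Of the 12,751 genes paired with any kept peak, 20.7%, 23.2% and 21.5% had fallen at 1, 6 and 10 h. With KCl the counts lower and higher were 40 and 49 at 1 h (backgrounds 28.2% and 26.5%), 67 and 60 at 6 h (33.1% and 33.4%) and 47 and 63 at 10 h (28.2% and 29.0%). The median log2 change of the paired genes was -0.04 at BDNF 1 h, -0.06 at 6 h and -0.04 at 10 h, and 0.03, 0.01 and 0.03 with KCl. The shares at BDNF 1 h were thus near the background in both directions. Without BDNF 1 h A the counts at 1 h were 18 lower and 21 higher (backgrounds 10.8% and 13.4%), and without BDNF 1 h B 25 lower and 20 higher (13.3% and 15.5%), so that the shares of the paired genes, 9.89% and 11.5% and then 13.7% and 11.0%, fell together with the backgrounds.

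Runx1t1, a transcriptional corepressor, had the largest fall among paired genes at BDNF 1 h, and a member paired with it is printed above in the last set. Its deposited normalised value was 1151 to 1280 in the controls (median 1250), 572 and 588 at BDNF 1 h, 697 and 662 at 6 h, then 850 and 786 at 10 h. The BDNF libraries lay below all controls at each time, with log2 changes of -1.08 ± 0.07 (SE; limma adjusted p = 1.43e-11), -0.85 ± 0.07 and -0.59 ± 0.07. It also fell with KCl, with -0.74 ± 0.07 at 1 h and -1.25 ± 0.07 at 10 h, while the printed member was taken for a KCl value near the controls.

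Sybu encodes syntabulin, which links cargo to kinesin for transport along axons, and has a member in an exon 12.3 kb from its start (chr15:44764506-44764928, relative accessibility -1.31). Its value was 1407 to 1577 in the controls and 792 and 783 at BDNF 1 h, a log2 change of -0.91 ± 0.06 (limma adjusted p = 4.42e-11), and it was as low later, by -1.14 ± 0.06 at 6 h and -0.94 ± 0.06 at 10 h. At KCl 1 h it was 1498 and 1512, within the controls (0.03 ± 0.06, adjusted p = 0.722). Sh2d3c, an adaptor protein, has a member at its promoter, with 4.97 and 4.89 CPM at BDNF 1 h against 8.24 to 13.9 CPM in the controls. Its RNA was 221 and 241 at BDNF 1 h against 345 to 465 in the controls (-0.84 ± 0.10, adjusted p = 1.27e-06) and 362 and 426 at KCl 1 h (-0.08 ± 0.10, adjusted p = 0.571).

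The other large falls at BDNF 1 h had different later courses. Dctd, a deaminase of nucleotide synthesis, changed by -0.86 ± 0.15 (limma adjusted p = 1.08e-04) and was back at 0.08 ± 0.15 at 6 h. Trmt9b, a gene of the tRNA methyltransferase family, fell at 1 h (-0.86 ± 0.16, adjusted p = 2.51e-04) and rose at 6 h (1.80 ± 0.16, adjusted p = 1.58e-08). Atg4c, an autophagy protease, changed by -0.60 ± 0.10 at 1 h (adjusted p = 6.1e-05) and -0.06 ± 0.10 at 6 h. Hrasls (-1.06 ± 0.36, adjusted p = 0.0255) and Clrn1 (-0.86 ± 0.32, adjusted p = 0.0431) were low, with control values of 14.4 to 25.5 and 4.81 to 8.81. The largest falls at BDNF 6 h were in Reps2, an endocytic protein (-1.17 ± 0.09), Sybu, Rimbp2, which binds RIM at the presynaptic active zone (-1.13 ± 0.15), and Cux2, a homeobox factor of upper-layer neurons (-1.09 ± 0.10).

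A member nearby did not go with lower RNA in every gene. Cckbr, the cholecystokinin B receptor, has a member 7.29 kb from its start (chr7:105418278-105418601, relative accessibility -1.19), yet its RNA was 139.9 and 135.9 at BDNF 1 h against 10.3 to 21.8 in the controls (3.03 ± 0.22, limma adjusted p = 4.89e-10). March11, a ubiquitin ligase with an intronic member 2.50 kb from its start, rose by 2.82 ± 0.18 (adjusted p = 2.58e-11), and Vcl, which encodes vinculin of cell adhesions, by 2.02 ± 0.16 (adjusted p = 1.63e-08). Zfp516 rose at 1 h (1.36 ± 0.15) and fell at 6 h (-0.60 ± 0.15), and the translation factor gene Eif1a rose by 0.78 ± 0.07. Gm13502 rose by 1.33 ± 0.12 with BDNF and by 0.96 ± 0.12 with KCl at 1 h.

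**Figure D5:**
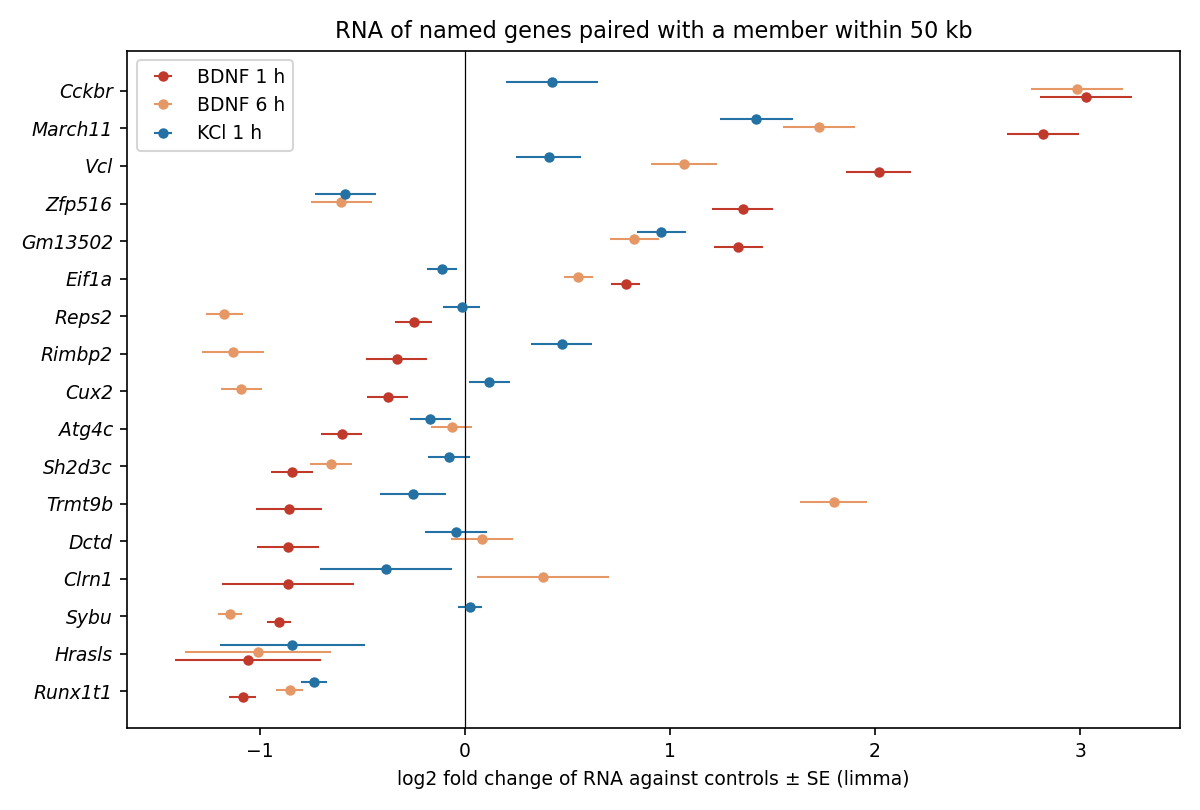
RNA log2 fold change against the 6 controls (limma, bars are ± 1 SE) at BDNF 1 h, BDNF 6 h and KCl 1 h for the 17 named genes paired with a member within 50 kb. The genes run from Runx1t1 at -1.08 to Cckbr at 3.03 at BDNF 1 h, and Trmt9b and Zfp516 change sign between BDNF 1 h and 6 h.

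Among the 31 promoter members, those whose genes had the smallest adjusted p at BDNF 1 h went both ways. Besides Sh2d3c, the pyrophosphate transporter gene Ank (-0.27 ± 0.06, limma adjusted p = 0.00149), Nhsl2 (-0.55 ± 0.14, adjusted p = 0.00329) and the ubiquitin ligase gene Herc3 (-0.27 ± 0.08, adjusted p = 0.0124) fell. Emp2, a membrane protein gene (0.22 ± 0.07, adjusted p = 0.0252), and G0s2, an inhibitor of a fat-cleaving lipase (0.53 ± 0.19, adjusted p = 0.0331), rose. The promoter member of G0s2 had 1.83 and 3.46 CPM at BDNF 1 h against 5.77 to 11.4 CPM in the controls. With KCl, G0s2 RNA was 9.88 and 10.7 at 1 h against 30.1 to 43.9 in the controls (-1.80 ± 0.19), while its promoter peak had 8.87 and 8.50 CPM.

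Of the factors whose motifs were searched, 79 genes were listed and 78 tested. At BDNF 1 h 38 rose (48.7%; background 21.3%) and 20 fell (25.6%; background 19.0%) by limma. The largest changes were rises in Egr2 (8.27 ± 0.18), Egr4 (8.04 ± 0.49), Fosb (6.72 ± 0.22), Fos (5.63 ± 0.15), Egr1 (5.56 ± 0.09), Egr3 (5.41 ± 0.22), Junb (4.66 ± 0.13) and Klf10 (3.72 ± 0.09). The letters TGANTCA, searched for the Fos and Jun products with any base at N, were in 6 members. Fos and Fosb also rose with KCl at 1 h, by 7.30 ± 0.15 and 9.52 ± 0.22. Klf10, a zinc finger repressor, had 2880 and 2812 at BDNF 1 h against 193 to 225 in the controls, and 244 and 242 at KCl 1 h (0.18 ± 0.09, adjusted p = 0.131). Hic1, whose letters were in 1.60% of the members, had 181 and 177 at BDNF 1 h against 15.6 to 30.1 in the controls (3.06 ± 0.22, adjusted p = 3.27e-10) and changed by 1.44 ± 0.22 with KCl.

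The NFI genes, whose short site was in 29.8% of the members, were near the controls at BDNF 1 h and lower at 6 h. Nfia changed by -0.06 ± 0.10 and then -0.55 ± 0.10, Nfib by -0.14 ± 0.07 and then -0.49 ± 0.07, and Nfix by -0.21 ± 0.06 (limma adjusted p = 0.0126) and then -0.64 ± 0.06. With KCl the NFI genes were also near the controls at 1 h (-0.07 to 0.05) and lower later. At KCl 6 and 10 h Nfia changed by -0.45 and -0.65, Nfib by -0.10 (not called) and -0.45, and Nfix by -0.40 and -0.47. Of the Rfx genes, Rfx2 (-0.48 ± 0.18, adjusted p = 0.0467), Rfx3 (-0.27 ± 0.07, adjusted p = 0.00451) and Rfx5 (-0.43 ± 0.10, adjusted p = 0.00161) fell at BDNF 1 h, while Rfx1 (0.02 ± 0.10), Rfx4 (0.02 ± 0.15) and Rfx7 (0.03 ± 0.07) were not called. Rfx5 also fell with KCl at 1 h (-1.74 ± 0.10). Of the 7 bHLH genes of the E-box, 4 fell and 1 rose at BDNF 1 h. Bhlhe22 fell by 1.56 ± 0.11 (adjusted p = 9.64e-10), Neurod6 by 0.56 ± 0.08 (adjusted p = 1.31e-05), Tcf4 by 0.35 ± 0.06 (adjusted p = 3.58e-05) and Neurod1 by 0.29 ± 0.12 (adjusted p = 0.0684), on the log2 scale, and Neurod2 rose (0.57 ± 0.07, adjusted p = 2.23e-06). At KCl 1 h Bhlhe22 (-0.41 ± 0.11), Neurod1 (-0.65 ± 0.12) and Tcf12 (-0.20 ± 0.06) fell and Neurod2 rose (0.40 ± 0.07). Neurod6, Tcf3 and Tcf4 were not called there (-0.09 to -0.04). Mef2c, chosen here after its values were seen because a member lies 487 kb away, fell at BDNF 1 h (-0.83 ± 0.07) and 6 h (-1.30 ± 0.07), and its factor's letters CTAAAAATA were in 8 members (1.42%; 0.614 to 2.78%), against 0.688% of kept peaks outside promoters.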

How the data were processed

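Chromatin accessibility and RNA were measured in 18 libraries each. According to the study, ATAC reads were aligned to mm10 with Bowtie2, peaks were called per sample with MACS2 and kept when found in at least 2 samples, and DiffBind counted reads. The deposited ATAC table, described by the authors as normalised, held whole numbers with unequal totals and was used as counts. The deposited RNA table held a signal per gene, read counts that the authors divided by size factors after TopHat2 alignment; dividing by the step of 1 read gave whole reads (within 0.01) for 100% of the values in each library. Deposited tables of the authors' comparisons, with their fold changes and p-values, were not used, and 0 columns were left unmapped. The processing notes name no tool versions.

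Members were found as the report describes; the members, gene lists and motifs were chosen with earlier results of these data known. ATAC peaks with a mean count of at least 10 were tested with edgeR 4.0.16 (quasi-likelihood, robust, LOESS offsets, 7 levels with pooled controls). RNA was tested with limma 3.58.1 (trend, robust) on log2(value + 1) for 16,209 genes with a mean of at least 10, and fold changes are on that scale. Calls were at a Benjamini-Hochberg adjusted p below 0.1 over all peaks or genes. Both fits were tested on data with known changes first. Gene positions came from GENCODE on GRCm38; 26,162 of 26,709 genes matched a symbol and 16,015 of the tested genes a start. RNA counting by strand is not given in the sources used here, so overlapping genes cannot be told apart. Intervals are exact binomial (Clopper-Pearson, 95%) and cover counting error only. DESeq2 1.42.0 was an alternative test.

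Named peaks were the 6 lowest at BDNF 1 h, up to 6 called lower and 3 higher with BDNF than KCl, the 2 on each side of the threshold, and up to 6 promoter members by RNA p. Named genes were the 8 largest falls and 6 largest rises at BDNF 1 h, the 4 largest falls at 6 h, genes nearest to at least 4 members, the 8 most changed factors, Hic1 and the Rfx genes. NFI, bHLH and Mef2c values were added after values were seen.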

Additional observations from a re-analysis of the deposited data

Results flagged for a closer look

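Over 50 groups of 6 control values, 1 for each named peak and gene, a value far from the other 5 is found by chance in about 1 in 20 groups, and 2 were found. The lowest control of the member in Atp6v0d2, chr4:19905805-19906093, had 5.30 CPM (control 1 h A), and the lowest control of Klf10 RNA had a value of 193 (control 10 h A).

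The effects of BDNF and KCl differed by edgeR at 8 named members, as log2 differences of BDNF less KCl. They were -1.40 at chr6:145585265-145585856, -1.76 at chr15:57302592-57303093, -1.56 at chr9:62181187-62181707, -1.25 at chr1:10510336-10510799 and -1.33 at chr16:79651194-79651835 at 6 h. At 10 h they were -2.88 at chr13:95871975-95872329, -1.90 at chr1:10510336-10510799 and -1.58 at chr16:79651194-79651835. The opposite sign was found at chr13:83016477-83016990 at 6 h, with 1.37, and at chr15:5740623-5741091 at 10 h, with 1.53.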

How the results depend on the processing

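No paired analysis was possible because the ATAC columns carry no replicate number. In RNA, samples with the same letter did not deviate together (36 pairs, correlations -0.31 to 0.42, median 0.06). With the replicate block the paired genes called lower and higher were 41 and 35 at BDNF 1 h, 50 and 43 at 6 h, 63 and 34 at 10 h, and 40 and 49, 69 and 60, and 48 and 63 with KCl.

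The number of members was 1420 or 985 with a single BDNF 1 h library, 42 with a mean count of at least 50, and 551 to 597 without 1 control library. For BDNF against KCl at 6 h, TMM scaling and DESeq2 size factors each gave 33 members lower (5.85%, backgrounds 1.65% and 1.62%). DESeq2's test gave 0 higher (background 2.33%). An adjusted p below 0.01 gave 0 lower and 0 higher (backgrounds 0.168% and 0.360%). At 10 h that threshold gave 1 lower (background 0.0692%), and 9 levels gave 2 higher (background 1.26%). Leaving out any 1 of the libraries compared left fewer members called lower, and the lone library is then assumed to vary like the other groups. The medians were then -0.33 to -0.24 at 6 h and -0.26 to -0.19 at 10 h. Between 10 and 6 h leaving out a library gave 0 members for both stimuli. The median difference of the members kept its sign over the 11 settings, at -0.43 to -0.24 at 6 h and -0.26 to -0.19 at 10 h.

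Against controls of the same time, 29 members were lower at BDNF 6 h (5.14%, background 1.03%) and 18 at BDNF 10 h (3.19%, background 0.933%). At KCl 6 h 2 were higher (background 2.45%), and at KCl 10 h 7 were lower and 1 higher (backgrounds 1.08% and 2.17%). With pooled controls, DESeq2 size factors gave 14 and 19 higher at KCl 6 and 10 h (backgrounds 7.06% and 8.33%). TMM gave 16 and 20 (7.62% and 8.96%), and DESeq2's own test 8 and 12 (5.79% and 6.98%). All of these were shares of the members below the background. With 1 library left out, the median log2 change of the members against pooled controls was -0.38 without BDNF 6 h A and -0.42 without B. It was -0.41 without BDNF 10 h A and -0.30 without B. For KCl it was -0.15 without KCl 6 h A and -0.08 without B, against -0.04 and -0.02 over all peaks. It was -0.11 without KCl 10 h A and -0.12 without B, against -0.02 and -0.03 over all peaks. The KCl counts that follow come from fits with 1 library in a group. They stand without a background, so no excess of calls is read from them. Without KCl 6 h A or B there were 5 and 3 lower and 0 and 5 higher, and without KCl 10 h A or B 1 and 8 lower and 1 and 2 higher.

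For paired genes, an adjusted p below 0.01 gave 19 lower (10.4%, background 9.74%) and 16 higher (8.79%, background 12.5%) at BDNF 1 h. It gave 27 higher at 6 h (14.8%, background 12.7%) and 38 lower at 10 h (20.9%, background 8.72%). At KCl 1 h it gave 29 higher (15.9%, background 16.4%). Pairing within 20 kb left 102 genes, 26 of them lower (25.5%) and 16 higher (15.7%) at BDNF 1 h, with backgrounds of 19.0% and 21.3%. At 6 h 33 were lower (32.4%) and 21 higher (20.6%), with backgrounds of 21.1% and 22.1%. At 10 h 41 were lower (40.2%) and 16 higher (15.7%), with backgrounds of 19.5% and 21.1%. KCl gave 20 and 28 at 1 h (backgrounds 28.2% and 26.5%). It gave 37 and 34 at 6 h (33.1% and 33.4%) and 29 and 37 at 10 h (28.2% and 29.0%). Leaving out a library gave 18 to 25 lower and 20 to 21 higher at BDNF 1 h (18 and 21 without A, 25 and 20 without B), 43 to 45 and 29 to 30 at 6 h, 41 to 47 and 25 to 26 at 10 h, and with KCl 29 to 39 and 34 to 38, 57 to 63 and 52 to 53, and 37 to 41 and 47 to 49. On recovered reads edgeR called 3359 genes lower and 3071 higher at BDNF 1 h, 40 and 28 of them paired.

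Searching the whole peak up to 500 bases raised the motif shares in members and in kept peaks outside promoters, to 3.55% against 21.3% for AP-1, 7.62% against 5.58% for RFX, 10.5% against 9.88% for GTTGCCA, 37.8% against 35.9% for CAGATG, 29.1% against 32.4% for CAGCTG, 15.6% against 17.0% for CAGGTG, 24.6% against 19.7% for TAATTA, 7.80% against 6.68% for POU, 27.3% against 24.0% for SOX, 6.74% against 10.7% for AGGTCA, 22.2% against 21.8% for TEAD, 44.3% against 38.2% for TTGGCA and 6.21% against 13.6% for CTCF. The share of the kept peaks lay outside the interval of the members for AGGTCA, AP-1, TTGGCA, CTCF and HIC1 in both windows, and for TAATTA over the whole peak alone (21.1 to 28.4%). Members outside promoters of at most 45% GC had 0.266% for KLF and SP, HIC1 and ETS, 13.3% for CAGCTG, 18.9% for TAATTA and 1.33% for the NFI palindrome.

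Of the values for single peaks and genes, 629 kept direction and call, 65 lost the call, and 5 that had no call changed sign: the BDNF less KCl difference at 10 h of chr9:62181187-62181707 (0.53 without KCl 10 h A, -0.66 without B), and at BDNF 6 h the RNA change of Herc3 (0.0052 without B, -0.092 without A), Atg4c (0.021 without B, -0.15 without A) and Fosb (0.065 by edgeR on recovered reads, 0.091 without A, -0.097 without B). The cause was not tested for any of these changes other than the fewer libraries, genes or bases named. The shallowest library, KCl 6 h B, had 1.24 M reads, and a difference missed at a single member was not detectable at this depth.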
